A study of Mus musculus with 24 samples.

Results

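Oxidative phosphorylation genes were described in macrophages sorted from 2 mouse tissues, the dura mater (the tough outer layer of the meninges under the skull) and the diaphragm (the main breathing muscle). Members were taken by symbol: names starting with Nduf, Uqcr, Atp5 or Cox4 to Cox8, and the genes Sdha to Sdhd. The rule matched 104 of the 41388 genes in the count table, and leaving out 11 pseudogenes and the muscle isoform Cox6a2 left 92. They comprise 7 core and 29 supernumerary subunits of complex I, 8 complex I assembly factors, 4 subunits of complex II, 8 of complex III, 12 ubiquitous and 7 tissue-restricted subunits of complex IV, and 17 genes of complex V. The assembly factors help to build complex I and are not subunits of it, although the symbol rule takes them in. So 77 genes are called subunits here when these 8 factors and the 7 restricted isoforms are set apart. Complex V takes every Atp5 symbol, Atp5s included, without a check that each product is a structural subunit.

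Per the labels, the animals were C57BL/6, wild type, 17 weeks old and at steady state, were perfused before dissection, and gave cells sorted in bulk. The labels name 3 macrophage subsets in each tissue, but the column names of the count table could not be tied to them. A dural column is named by 1 of the marks P4, P5 and P6, preceded by the number 1, 3 or 4, and a diaphragm column carries a number only. After repeat runs of the same diaphragm number were summed, 9 dural and 7 diaphragm libraries remained. The sources used here do not say what a mark or a number stands for. No label says that libraries came from separate animals, so p-values measure the spread between these libraries. Marks are therefore compared as marks, and diaphragm libraries are shown one by one.

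In oxidative phosphorylation, complexes I and II feed electrons from NADH and succinate into the inner mitochondrial membrane. Complexes III and IV pass them to oxygen while protons are pumped out, and complex V (ATP synthase) uses the returning protons to make ATP. Most subunits are encoded in the nucleus and imported, whereas a small set in complexes I, III, IV and V is encoded by mitochondrial DNA. In macrophages the balance between this pathway and glycolysis is known to shift with activation, and succinate dehydrogenase (complex II) is also an enzyme of the TCA cycle.

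The promoters of 6 members are shown because these genes carry the contrasts below: Cox6a1 and Atp5b were lower in dura, Uqcrc1, Atp5b and Atp5o were higher in P6 libraries, and Cox7a1 and Cox8b are muscle-type isoforms. Each sequence runs from 250 bases before the start of the gene to 50 after it, in the sense of the gene, from RefSeq on GRCm38.p6. Capitals mark exact matches, on either strand, to 4 sets of letters searched: GCANGCG (the core of the site of nuclear respiratory factor 1, NRF1), CCGGAAG (ETS factors such as GABP), AAGATGG (YY1) and CAGCTG (an E-box of muscle regulatory factors).
Cox6a1, chr5:115348909-115349208, minus strand: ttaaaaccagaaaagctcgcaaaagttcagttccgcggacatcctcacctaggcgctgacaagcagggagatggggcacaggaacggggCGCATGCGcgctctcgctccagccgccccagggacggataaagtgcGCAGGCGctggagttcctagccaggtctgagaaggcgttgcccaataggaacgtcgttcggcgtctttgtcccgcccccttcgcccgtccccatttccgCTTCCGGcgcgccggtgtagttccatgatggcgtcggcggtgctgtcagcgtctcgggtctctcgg
Uqcrc1, chr9:108936398-108936697, plus strand: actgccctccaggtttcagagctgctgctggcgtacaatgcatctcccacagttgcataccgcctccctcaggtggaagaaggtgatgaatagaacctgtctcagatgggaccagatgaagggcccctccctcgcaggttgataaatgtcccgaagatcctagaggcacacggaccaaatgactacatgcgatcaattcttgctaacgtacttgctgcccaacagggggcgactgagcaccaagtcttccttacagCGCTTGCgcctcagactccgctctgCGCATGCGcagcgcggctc
Atp5o, chr16:91931581-91931880, minus strand: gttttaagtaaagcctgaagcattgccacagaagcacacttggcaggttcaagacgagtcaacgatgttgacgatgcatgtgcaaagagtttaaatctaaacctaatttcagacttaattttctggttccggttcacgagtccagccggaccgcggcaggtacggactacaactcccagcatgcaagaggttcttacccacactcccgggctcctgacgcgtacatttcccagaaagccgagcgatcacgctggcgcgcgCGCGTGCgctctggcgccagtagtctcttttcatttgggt
Atp5b, chr10:128083057-128083356, plus strand: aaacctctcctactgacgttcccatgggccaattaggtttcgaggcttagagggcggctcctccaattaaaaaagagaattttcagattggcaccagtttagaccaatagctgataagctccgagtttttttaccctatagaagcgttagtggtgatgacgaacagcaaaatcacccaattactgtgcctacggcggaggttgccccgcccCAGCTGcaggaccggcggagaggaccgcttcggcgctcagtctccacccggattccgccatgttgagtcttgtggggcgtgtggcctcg
Cox7a1, chr7:30183921-30184220, plus strand: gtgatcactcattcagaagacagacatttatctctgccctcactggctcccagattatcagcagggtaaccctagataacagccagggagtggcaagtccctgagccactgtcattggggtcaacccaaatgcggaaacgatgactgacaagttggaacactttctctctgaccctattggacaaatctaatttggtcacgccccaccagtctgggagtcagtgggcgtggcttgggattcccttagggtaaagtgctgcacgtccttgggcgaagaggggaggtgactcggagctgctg
Cox8b, chr7:140900397-140900696, minus strand: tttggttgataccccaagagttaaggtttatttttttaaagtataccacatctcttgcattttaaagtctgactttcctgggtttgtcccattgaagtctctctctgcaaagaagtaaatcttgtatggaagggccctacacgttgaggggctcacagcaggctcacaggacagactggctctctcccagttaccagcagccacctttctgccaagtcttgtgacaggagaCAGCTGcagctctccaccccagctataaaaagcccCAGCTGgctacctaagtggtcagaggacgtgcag
Cox6a1 holds 3 NRF1 matches and 1 ETS match, Uqcrc1 holds 3 NRF1 matches just after its start, and Atp5o holds 1. In Cox6a1 and Uqcrc1, 2 of the 3 overlap, on opposite strands. The Atp5b window has a single E-box match, Cox8b has 2, and the Cox7a1 window has no match to any of the 4. Of 74 members with a promoter in the table, 32 (43.2%) held the NRF1 letters, against 16.8% of all 27018 promoters of the same length. The ETS letters were in 17 members (23.0%, against 9.12%) and the YY1 letters in 10 (13.5%, against 6.48%), whereas CAGCTG was in 6 (8.11%, against 16.1%). Letters of different factors do not overlap in these 6 windows. These matches describe letters in a window and do not show binding.

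Library totals ran from 10457920 to 24077834 counts in dura and from 11053351 to 30132295 in diaphragm. Levels are given as CPM, the usual depth-scaled unit, with library sizes adjusted by TMM factors. A list of 8 macrophage genes summed to between 22390 and 30600 CPM in every library, but its genes were not level. In P6 against P4, 3 of the 8 rose and 2 fell at an edgeR adjusted p under 0.05. Lyz2 rose by 0.88 on the log2 scale, while Csf1r and Mertk fell by 0.51 and 0.91. Against the diaphragm 3 were higher in dura and 0 lower, with Fcgr1 highest at 1.12. Some libraries stood apart in markers of other cells. Diaphragm libraries 1 and 7 held 15240 and 7337 CPM of 6 fibroblast markers, against 276 to 793 in the other 5. Dural library 1P6 (number 1, mark P6) held 2990 CPM of 4 genes listed as liver markers, against 4.63 to 506 in the other 8 dural libraries. Only 1 of these 4 passed the count filter of the dural fit. Against the diaphragm, 1 of the 4 was higher in dura and 3 were lower, so this sum does not stand for the 4 as a set. In bulk samples, fewer cells of a type and less RNA per cell cannot be told apart.

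Per kilobase of exon, the most abundant members over all libraries were the complex IV subunits Cox8a, at 278.9 CPM per kilobase, and Cox6a1, at 265.6. Next came the catalytic head of ATP synthase, with its alpha subunit Atp5a1 at 192.6 and its beta subunit Atp5b at 154.5, alongside Cox6b1 at 190.6 and Cox4i1 at 184.1. On the same scale the median was 58.6 for ubiquitous complex IV subunits, 53.2 for complex II, 47.9 for complex III, 38.6 for complex V, and 31.9 and 32.9 for core and supernumerary complex I. Assembly factors were lower, with a median of 4.26, and restricted isoforms lowest, at 1.51. A few subunits sat far below the rest of their complex, among them Atp5g2 at 0.317, Ndufab1 at 0.989, Atp5l at 1.43 and Ndufb4 at 1.46 CPM per kilobase. Reads of 75 bases cannot be assigned to 1 gene where near-identical copies exist. Of all 75-base stretches of the transcripts, 35.8% in Atp5g2 and 17.2% in Ndufb4 also occur in another gene, and 17 members share at least 10%, among them Atp5o (34.2%), Ndufb6 (27.8%) and Uqcrc2 (16.5%). The values of these members are uncertain for that reason, while 52 members share no such stretch. Only exact stretches in annotated transcripts were counted, so copies with a few differences are missed and the shares are not the full extent. Ndufab1 and Atp5l also have long exon lengths, 6883 and 6443 bases against a member median of 1578, which lowers a value per kilobase.

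The subunits tended to move together over the 16 libraries. The median correlation of a subunit with the mean of the others was 0.72 over 77 subunits, a description across libraries that share tissue and mark. Cox7a2, a small complex IV subunit, followed the others most closely (r = 0.93). Atp5s, Ndufb4 and Ndufv3 had correlations below 0, down to -0.18 for Atp5s. Sdha, the flavoprotein that oxidizes succinate, also moved on its own (r = 0.04) and was the steadiest member, with a coefficient of variation of 7.23%. Outside the members, the genes whose log2 CPM followed the mean subunit profile most closely among 4773 well-expressed genes were Sec61b (r = 0.91), Banf1 (0.90), Atp6v0e (0.89), Sod1 (0.89) and Cyc1 (0.89), the last being the cytochrome c1 subunit of complex III that the symbol rule does not take.

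**Figure D1:**
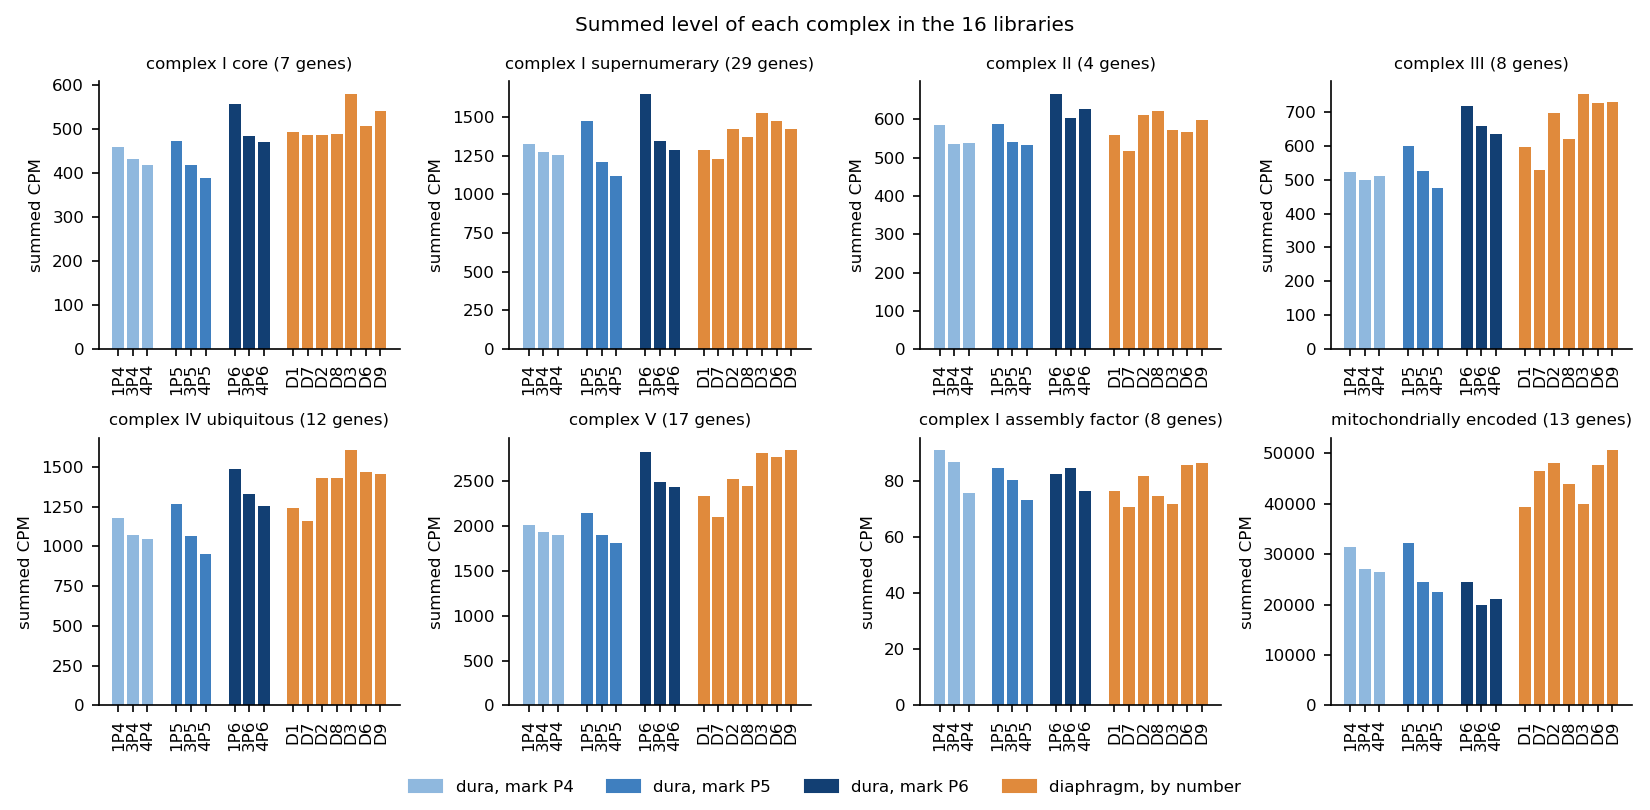
Summed CPM of each group of genes in the 16 libraries, 1 bar per library, with dura coloured by mark and diaphragm libraries D1 to D9 named by number. Complex V sums run from 1810 to 2146 in P4 and P5 libraries and from 2435 to 2828 in P6 libraries, while mitochondrially encoded sums run from 19910 to 24480 in P6 and from 22420 to 32210 in P4 and P5, which overlap.

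Within the dura, 8 of 16 ATP synthase genes and 4 of 8 complex III genes tested rose in P6 against P4 libraries. Of 88 members tested, 22 rose in P6 against P4 (25%), where 33.3% of all 13239 genes tested passed, 16% rising and 17.3% falling. No member fell (edgeR's quasi-likelihood test, Benjamini-Hochberg adjustment over all genes, threshold 0.05). At an unadjusted p under 0.05, 29 members were higher and 0 lower, and DESeq2 and limma-voom also called 0 lower. With library totals alone as scaling, 13 members rose and 1 fell. The median log2 fold change was 0.25 over the members and -0.0039 over all genes tested. Against P5, 15 members rose (17%, where 17.4% of all genes passed, 8.38% higher and 8.98% lower) and 0 fell in edgeR, DESeq2 and limma-voom, with a member median of 0.24. These comparisons share the P6 libraries. In 18 of the 88 tested members every P6 library lay above every P4 and P5 library, a pattern seen in 14.5% of all genes tested.

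The counts depended on the libraries and settings used. Without library 1P6, which had the highest subunit sum of the dura, 13 members rose against P4 and 7 against P5. Against P4 it was also 13 without 4P4 and 14 without 3P4. Against P5 it was 5 without 3P5, 5 without 4P5, 9 without 3P6 and 25 without 1P5. With all 16 libraries in one fit, 8 rose against P4 and 0 against P5. Other marker lists moved along the same marks, and bulk counts do not tell which cells carried these transcripts. The 4 cycling-cell genes summed to between 9.11 and 17.2 CPM in P4, 30.2 and 35.6 in P5 and 129.6 and 134 in P6. Fibroblast genes summed to 2012 to 3652, 563 to 754 and 238 to 378 CPM in the same order. Monocyte genes (Ccr2, Ly6c2 and Plac8) summed to 37.7 to 113.5 CPM in P4, 249.5 to 278.9 in P5 and 1482 to 1656 in P6. Most of this was Ccr2, at 1458 to 1639 CPM in P6. Plac8 fell in P5 against P4 (log2 fold change -3.06, edgeR adjusted p = 0.012) and was level in P6 against P4 (0.07). Ly6c2 passed in neither, and both rose in P6 against P5. The part of these markers in the differences was not tested.

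**Figure D2:**
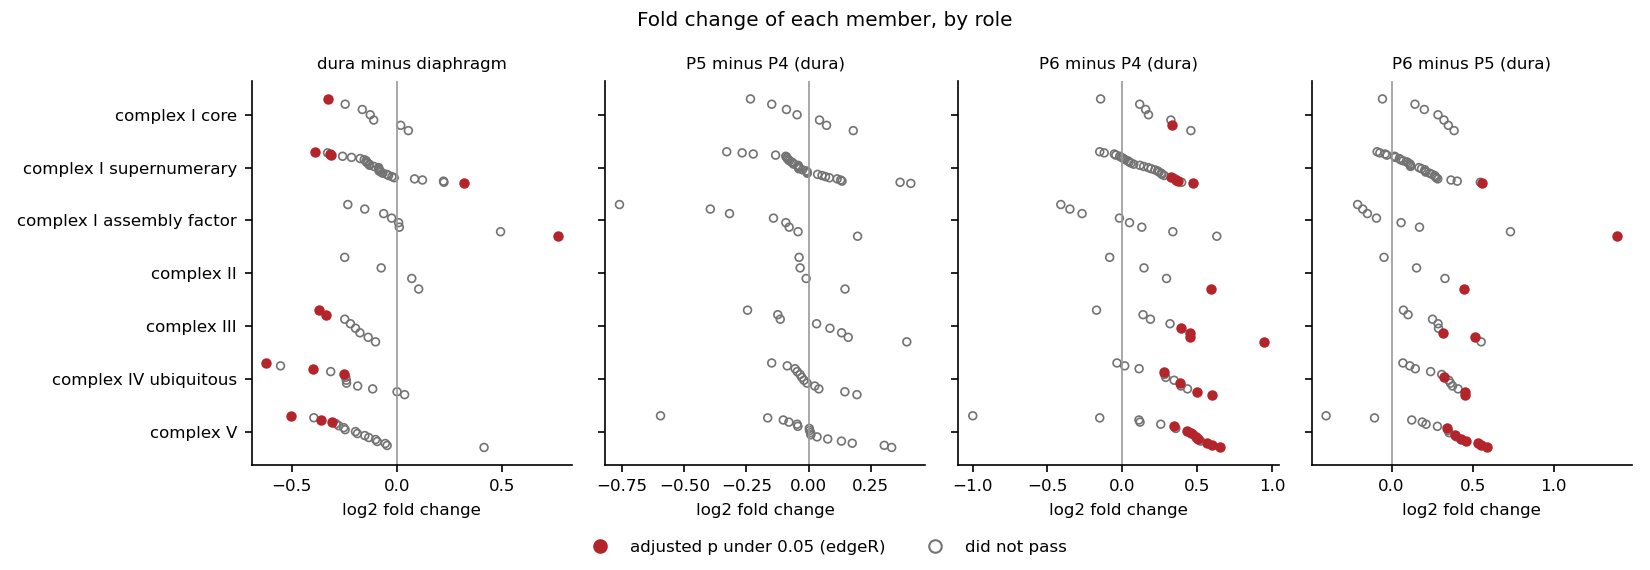
Log2 fold change of each tested member (points), in rows by role, for dura minus diaphragm and for the 3 pairs of dural marks, with members past an adjusted p of 0.05 filled in red. In P6 minus P4, 8 of 16 complex V genes are filled and all lie to the right, and in P5 minus P4 no point is filled.

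By role, complex V held 8 calls among 16 genes tested in P6 against P4, where 16% of all genes rose. The median log2 fold change of the complex was 0.44. Atp5b, the catalytic beta subunit, was at 547.1, 509.1 and 493.6 CPM in P4 libraries, 518.3, 504.0 and 478.0 in P5, and 798.1, 703.4 and 691.7 in P6. The 3 P6 libraries were thus higher than the other 6, with no overlap. Its log2 fold change was 0.51 ± 0.08 (SE) against P4 (edgeR adjusted p = 0.000354) and 0.55 ± 0.08 against P5 (adjusted p = 0.000461). Atp5c1, the rotating gamma stalk that couples proton flow to catalysis, was at 139.1, 114.0 and 119.7 CPM in P4, 140.0, 122.0 and 112.4 in P5, and 199.5, 180.9 and 181.8 in P6. The P4 and P5 libraries overlapped and the P6 libraries lay above both (log2 fold change 0.60 ± 0.11 against P4, edgeR adjusted p = 0.00101). Atp5a1, the alpha subunit, rose less, from 531.6 ± 8.9 CPM (SD, n = 3) in P4 to 673.7 ± 48.3 (n = 3) in P6. Atp5e, the small epsilon subunit of the central stalk, averaged 85.2 ± 5.6 CPM in P4 and 125.5 ± 11.5 in P6 (0.56 ± 0.11 on the log2 scale, edgeR adjusted p = 0.00229). Atp5mpl, a small membrane protein of the synthase, averaged 35.9 ± 0.3 and 56.3 ± 6.8 CPM (0.65 ± 0.13, edgeR adjusted p = 0.00248). Atp5o, the peripheral stalk protein whose promoter is shown above, was at 69.4, 61.5 and 58.5 CPM in P4 and 102.2, 80.3 and 76.5 in P6. Its P6 libraries were higher than all P4 libraries, but its call against P4 was lost in 5 of 17 alternatives. Atp5d of the central stalk and Atp5f1 of the peripheral stalk rose as well, by 0.43 and 0.49 on the log2 scale. The other 8 did not pass, among them Atp5j (-0.15) and Atp5s (-0.999, at 2.76 CPM in P6).

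Complex III held 4 calls among 8 genes in P6 against P4, where 16% of all genes rose. Uqcrfs1, the Rieske iron-sulfur protein that takes electrons from ubiquinol, had the largest increase of any called member in P6 against P4. It was at 47.1, 39.3 and 57.8 CPM in P4, 78.5, 63.1 and 48.2 in P5, and 106.1, 94.2 and 77.1 in P6. P6 lay above P4 in every library but overlapped with P5. The log2 fold change was 0.95 ± 0.19 against P4 (edgeR adjusted p = 0.00211) and 0.55 ± 0.19 against P5, which did not pass (adjusted p = 0.0637). Uqcrc1 and Uqcrc2, the core proteins on the matrix side, were more even between replicates. Uqcrc1 was at 119.5, 120.7 and 121.8 CPM in P4, 136.4, 134.2 and 125.6 in P5, and 172.9, 165.5 and 155.4 in P6, with no overlap between the 3 marks. The step from P4 to P5 did not pass (log2 fold change 0.13, edgeR adjusted p = 0.43), whereas P6 rose by 0.45 ± 0.08 against P4 (adjusted p = 0.00103). Uqcrc2 was at 92.3, 98.0 and 91.0 CPM in P4, 78.8, 90.6 and 88.1 in P5, and 124.8, 117.1 and 126.2 in P6 (0.39 ± 0.09 against P4, edgeR adjusted p = 0.00464). Uqcrh, the hinge protein, was the fourth call, at 0.45.

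Complex II held 1 call among 4 genes in P6 against P4, where 16% of all genes rose. Sdhb, its iron-sulfur subunit, was at 87.4, 81.9 and 70.8 CPM in P4, 103.1, 87.0 and 75.2 in P5, and 121.9, 116.8 and 121.6 in P6. All P6 libraries were above all others (log2 fold change 0.59 ± 0.12 against P4, edgeR adjusted p = 0.00242). Its partner Sdha was at 261.5, 237.0 and 245.5 CPM in P4, 232.1, 246.2 and 258.5 in P5, and 269.9, 267.2 and 281.8 in P6. Its P6 libraries were also all above the others, but the difference was smaller and did not pass (0.14 ± 0.08 for P6 against P4, adjusted p = 0.2 in edgeR). The membrane anchors differed in sign without passing the test: Sdhc had a log2 fold change of -0.08 and Sdhd of 0.30 in P6 against P4. The difference in response between the subunits was not tested.

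In complex IV, 4 of 12 ubiquitous subunits rose in P6 against P4, where 16% of all genes rose. Cox4i1, the ubiquitous form of a subunit that senses adenine nucleotides, was at 243.5, 220.5 and 213.0 CPM in P4, 261.1, 230.9 and 203.0 in P5, and 350.3, 316.5 and 284.1 in P6. P6 was again separate from both other marks (0.50 ± 0.11 against P4, edgeR adjusted p = 0.00401). Cox7a2l was at 125.0, 105.2 and 89.1 CPM in P4, and 178.3, 158.9 and 143.3 in P6 (0.60 ± 0.14, edgeR adjusted p = 0.00631). Cox7b and Cox8a passed with smaller increases of 0.39 and 0.28, calls that were lost in 8 and 12 of 17 alternatives. Cox6a1, by contrast, was at 165.5 ± 11.6, 159.0 ± 19.2 and 166.8 ± 16.5 CPM (SD, n = 3 each) over the marks, with a log2 fold change of 0.02 ± 0.11 for P6 against P4.

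Complex I had the fewest calls for its size among the complexes: 1 of 7 core subunits and 4 of 29 supernumerary subunits rose in P6 against P4, shares near the 16% of all genes. Ndufs7, a core subunit that carries the last iron-sulfur cluster, was at 72.5 ± 3.7 and 65.4 ± 6.5 CPM (SD, n = 3) in P4 and P6 (-0.15 ± 0.12). The supernumerary calls were Ndufb6, Ndufb8, Ndufb5 and Ndufa9, with increases of 0.47, 0.37, 0.36 and 0.32 on the log2 scale. Ndufa13, the most abundant supernumerary subunit by CPM beside Ndufc2, was level, with a log2 fold change of 0.01 ± 0.15. Among the assembly factors, Ndufaf6 rose against P5, from 1.35, 2.14 and 1.39 CPM to 3.60, 3.90 and 5.24 (1.39 ± 0.43, edgeR adjusted p = 0.0428). Its P4 values were 2.34, 2.13 and 3.77 CPM, and the call was lost in 10 of 17 alternatives. The P6 minus P4 fold changes of the 8 assembly factors ranged from -0.41 to 0.63, with a median of 0.01.

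P5 and P4 were close. Of 88 members 0 passed in either direction in edgeR, where 7.35% of all genes passed (3.09% higher, 4.26% lower), and DESeq2 and limma-voom also called 0. At an unadjusted p under 0.05, 1 member was higher and 0 lower, and the median log2 fold change was -0.03. The member fold changes ran from -0.76 for the assembly factor Ndufaf6 to 0.41 for Ndufab1, and 35 of 88 were above 0. Among the larger increases, Uqcrfs1 differed by 0.39 ± 0.19 on the log2 scale (adjusted p = 0.281 in edgeR) and Atp5mpl by 0.30 ± 0.13 (adjusted p = 0.231).

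**Figure D3:**
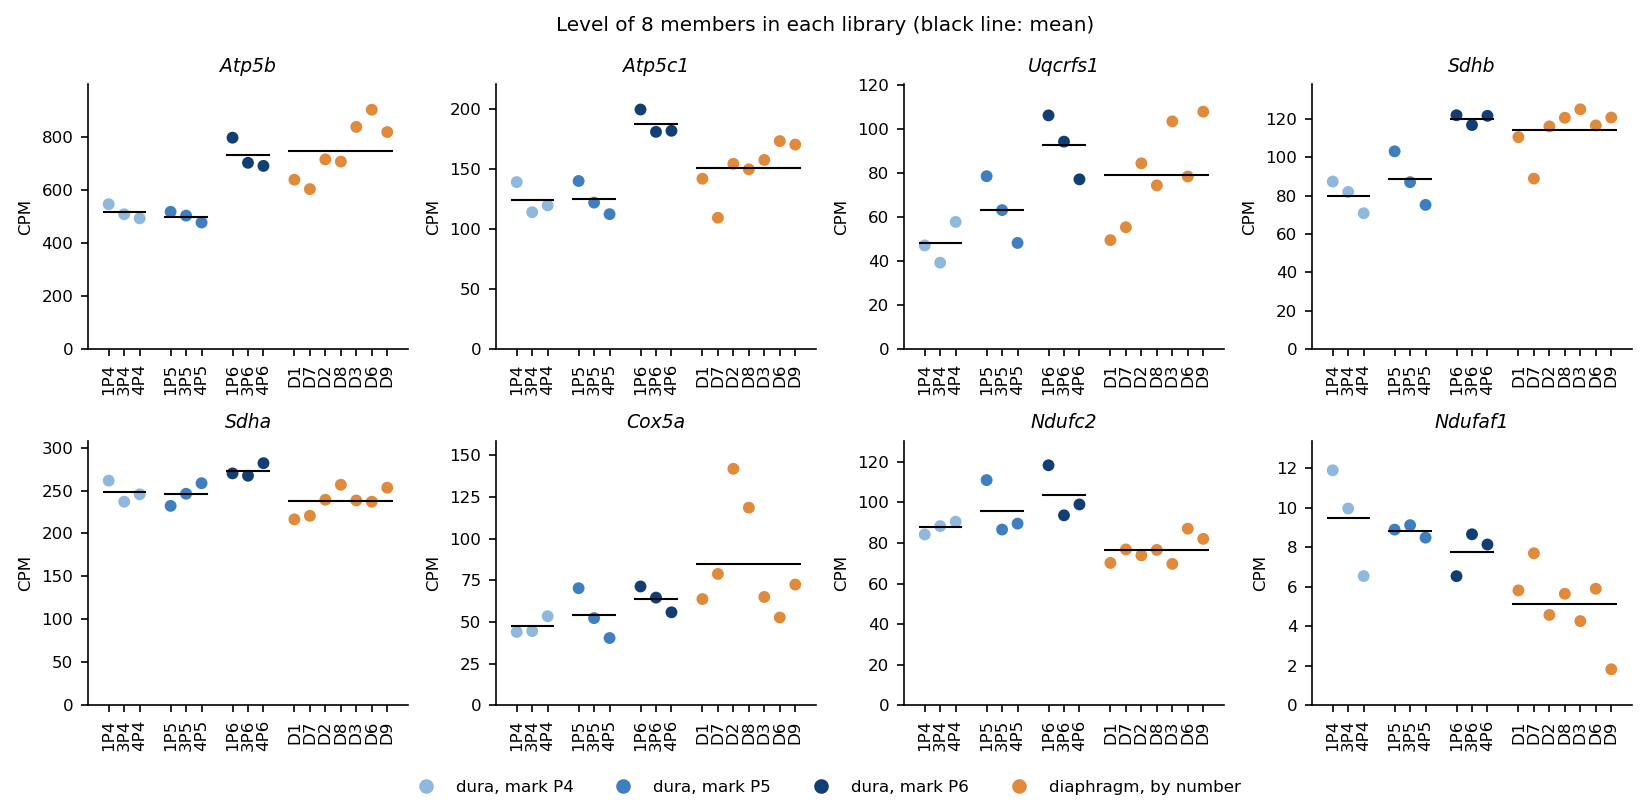
CPM of 8 members in each library (points), with the mean of each dural mark and of the diaphragm as a black line. Atp5b, Atp5c1, Sdhb and, by a smaller margin, Sdha have all 3 P6 points above the P4 and P5 points, and the 2 highest Cox5a points are diaphragm libraries 2 and 8, at 141.9 and 118.6.

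Against the diaphragm, most members did not pass and those that did were mostly lower in dura. Of 88 members tested, 2 were higher and 13 lower in dura (17% called), fewer than the 26.4% of all 13136 genes that passed (11.2% higher, 15.3% lower). The median log2 fold change, dura minus diaphragm, was -0.14 over the members and -0.01 over all genes tested. Scaling by library totals alone moved the 2 medians together, to 0.00 and 0.12, with 6 members higher and 4 lower, and it raised the higher share of all calls from 42.2% to 61.0%. The members' median lay below that of all genes under each scaling tried. The fit treats the 9 dural libraries as separate. Summed per dural number, 1 member was lower and 0 higher, where 813 of 15001 genes tested were lower and 446 higher. The number of members lower was 27 without the P6 libraries, 3 without P4 and 5 without P5. Over all genes it was 2270 of 13638, 1604 of 13438 and 1321 of 13242 in the same order. The members lower were 19 without diaphragm libraries 1 and 7, 8 without libraries 2 and 8, and 4 without libraries 3, 6 and 9. Over all genes these were 2192 of 13345, 1888 of 13432 and 1599 of 13758. Single libraries moved the number of members lower as well, to 22 without 1P6, 8 without 4P4 or 4P5 and 7 without 3P5. It was 8 and 7 without diaphragm libraries 3 and 6. In these fits between 1713 and 2008 of all genes were lower. Summed over the 77 subunits, the dural libraries ran from 5282 to 7903 CPM and the diaphragm libraries from 6029 to 7847, so the tissues overlapped. Markers of other cells differed between the tissues too. Endothelial genes, 4 of 4 of them lower in dura, summed to 13.8 to 97.5 CPM in dura and 28.1 to 929.4 in diaphragm. Dendritic cell genes, 2 of 4 lower, summed to 8.33 to 25.5 CPM in dura, and in diaphragm to 22.8 and 35.1 in libraries 1 and 7, 67.1 and 43.0 in 2 and 8, and 304.9, 368.1 and 261.1 in 3, 6 and 9. In libraries 3, 6 and 9 the dendritic cell sum was mostly Ccr7, at 242.2, 288.5 and 209.1 CPM. Flt3 and Xcr1 were also highest in these libraries. Zbtb46 went the other way, at 11.81, 14.33 and 10.96 CPM there and 15.2 to 28.37 in the other diaphragm libraries. Whether the markers of other cells had a part in the difference between the tissues was not tested.

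The lower members came from each complex but II. Cox6a1 was at 178.7, 156.7 and 161.3 CPM in P4, 181.1, 149.1 and 147.0 in P5, 185.6, 155.3 and 159.4 in P6, and in diaphragm at 184.5 and 190.5 in libraries 1 and 7, 210.6 and 214.6 in 2 and 8, and 270.8, 224.1 and 214.5 in 3, 6 and 9. Only the highest dural library, 1P6, and the lowest of the diaphragm, library 1, crossed. The log2 fold change was -0.40 ± 0.08 (edgeR adjusted p = 0.00198), and of 31 alternatives 1, the sum per dural number, lost the call. Atp5e ranged from 78.9 to 138.7 CPM in dura, median 91.8, and from 110.6 to 187.4 in diaphragm, median 137.4 (-0.50 ± 0.13, edgeR adjusted p = 0.00809). Its P6 libraries and 1P5 reached into the diaphragm range and the P4 libraries did not. Uqcrq, a small subunit at the ubiquinone-binding side of complex III, ranged from 59.2 to 85.0 CPM in dura and from 72.0 to 106.3 in diaphragm (-0.37 ± 0.09, edgeR adjusted p = 0.00686). Cox5a, a ubiquitous complex IV subunit, was at 40.4 to 71.3 CPM in dura, and in diaphragm at 63.8 and 78.8 in libraries 1 and 7, 141.9 and 118.6 in 2 and 8, and 65.1, 52.8 and 72.5 in 3, 6 and 9. Libraries 2 and 8 were far above all others, and the call (-0.62 ± 0.19, edgeR adjusted p = 0.0253) was lost without either of them and without both, where the log2 fold change was -0.27 (adjusted p = 0.194 in edgeR). Atp5b (-0.36), Ndufb6 (-0.39) and Uqcr10 (-0.34) also passed, calls that 19, 20 and 14 of 31 alternatives lost. Smaller differences that passed were Ndufv1, the NADH-binding core subunit (-0.33), Ndufa8 (-0.32), Ndufa11 (-0.31), Atp5j (-0.31) and Cox6c (-0.25).

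The 2 members higher in dura were a subunit and an assembly factor of complex I. Ndufc2, a subunit of the membrane arm, ranged from 84.1 to 118.2 CPM in dura, median 90.4, and from 69.7 to 87.0 in diaphragm, median 76.5. Of the dural libraries 2 fell within the diaphragm range. The log2 fold change was 0.32 ± 0.08 (edgeR adjusted p = 0.00825), and it was lost when dural libraries were summed per number. The assembly factor Ndufaf1 ranged from 6.53 to 11.9 CPM in dura and from 1.83 to 7.69 in diaphragm (0.76 ± 0.24, edgeR adjusted p = 0.0239), with 2 dural libraries inside the diaphragm range. In complex II no subunit passed: the log2 fold changes were 0.10 for Sdha, -0.25 for Sdhb, 0.07 for Sdhc and -0.07 for Sdhd, with edgeR adjusted p from 0.148 to 0.644.

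Restricted isoforms replace a ubiquitous complex IV subunit in certain tissues. Cox8b, the heart and skeletal muscle form of subunit 8, had 8 counts over all dural libraries and 438 over the diaphragm and was below the count filter of the fit. It was at 0 CPM in 6 dural libraries, 0.06 in 4P4, 0.12 in 4P5 and 0.33 in 1P6, and in diaphragm at 4.90 and 0.44 in libraries 1 and 7, 3.79 and 0.91 in 2 and 8, and 4.0, 3.96 and 3.20 in 3, 6 and 9. Every diaphragm library lay above every dural one (two-sided exact permutation test, p = 8.741e-05, the smallest that 9 against 7 libraries can give, 1 of 5 isoforms tested so). It was the single member of the 92 with no overlap between tissues, a pattern that no member among the 88 tested showed and that was found in 4.38% of all genes tested with dura below and 2.54% with dura above. Cox7a1, the corresponding muscle form of subunit 7a, was at 0.24 to 2.51 CPM in dura and 1.59 to 5.81 in diaphragm (-1.72 ± 0.43, edgeR adjusted p = 0.00693, exact permutation p = 0.000612). The dural libraries 1P6 and 3P6 reached into the diaphragm range. Ndufa4l2, a hypoxia-inducible relative of Ndufa4, reached 8.35 CPM in diaphragm library 1 and 3.05 in library 7, and lay between 0.11 and 2.12 elsewhere. Cox6b2, known from testis, was at 3.17 to 9.22 CPM in dura and 2.68 to 7.10 in diaphragm, and Cox4i2, known from lung, at 0 to 1.16 and 0 to 0.50. For these last 3 the exact permutation p ran from 0.167 to 0.388. Cox7b2 and Cox8c, known from testis, were listed at 0 in every library.

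The ubiquitous partners were far more abundant in both tissues. Cox8a averaged 166.7 ± 21.5 CPM over the 9 dural libraries (SD) and 180.2 ± 33.2 over the 7 of the diaphragm, against 0.06 and 3.03 for Cox8b. Cox7a2 averaged 51.9 ± 10.6 and 61.3 ± 8.2, and Ndufa4 80.0 ± 6.4 and 79.8 ± 14.9. The fold changes of the partners Cox4i1, Cox6b1, Cox7a2, Cox7b, Cox8a and Ndufa4 ranged from -0.31 to 0.00 and did not pass. Skeletal muscle markers moved with the muscle isoforms: 14 of them, which include Cox6a2, summed to between 10.4 and 18.95 CPM in dura and 158.8 to 373.6 in diaphragm. Of those tested, 11 of 11 were lower in dura, and Mb, the oxygen store of muscle, was at 0 in each dural library. Fibroblast and endothelial markers were highest in diaphragm libraries 1 and 7, where Ndufa4l2 was highest, with endothelial sums of 913.8 and 929.4 CPM against 28.1 to 491.8 in the other 5. The part of these markers was not tested.

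**Figure D4:**
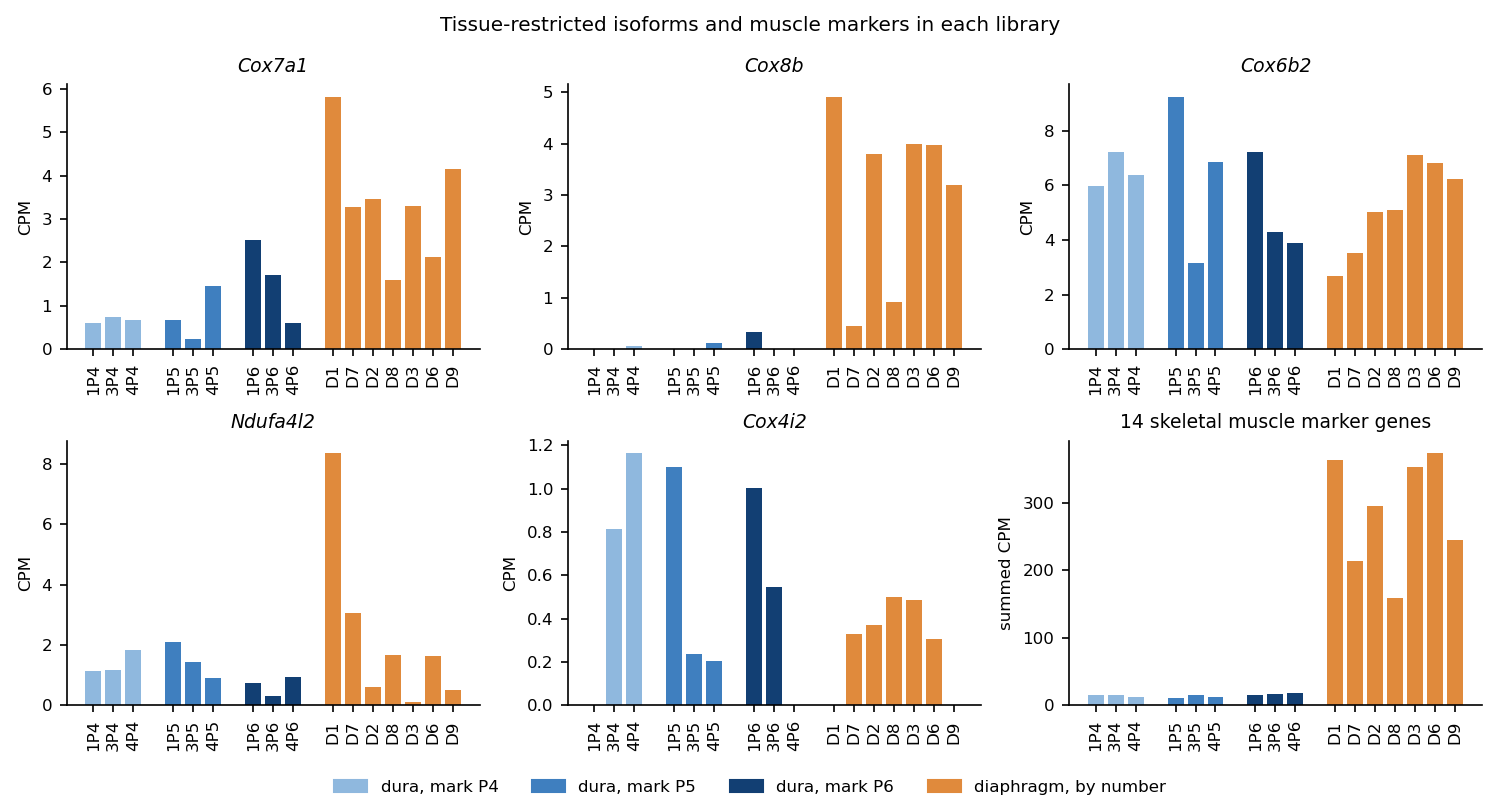
CPM of 5 restricted isoforms and the summed CPM of 14 skeletal muscle markers in each library (bars). Cox8b is near 0 in dura, and the muscle markers, which include Cox6a2, sum to 10.4 to 18.95 CPM there. Both are present in all diaphragm libraries, with library 7 lowest for Cox8b (0.44) and library 8 lowest for the markers (158.8).

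The subunits encoded by mitochondrial DNA were not tested against the nuclear ones. Of 13 such genes 7 were tested, and all 7 were lower in dura, with log2 fold changes from -1.04 to -0.57, where 15.3% of all genes were lower. mt-Co1, the catalytic subunit of complex IV, averaged 8431 CPM in dura and 16020 in diaphragm, and mt-Nd1 3867 and 7349. The other 6 (mt-Nd3, mt-Nd4l, mt-Co2, mt-Co3, mt-Atp6 and mt-Atp8) had averages below 1 CPM in both tissues, which is not read as their expression, and they were not compared. The sums and ratios given for these genes therefore rest on 7 of the 13. In P6 against P4, 4 of the 7 fell, including mt-Cytb by 0.49 and mt-Nd4 by 0.52, while 17.3% of all genes fell. The count was 2 without 1P4, without 3P6 or without 4P6, and 0 with all 16 libraries in one fit. Divided by the summed nuclear subunits, the mitochondrially encoded sum was 5.15, 4.71 and 4.68 in P4, 4.92, 4.32 and 4.25 in P5, and 3.10, 2.88 and 3.14 in P6. In diaphragm it was 6.03 and 7.73 in libraries 1 and 7, 6.70 and 6.31 in 2 and 8, and 5.10, 6.33 and 6.66 in 3, 6 and 9. All P6 libraries were thus below all P4 and P5 libraries, and only library 3 of the diaphragm fell inside the dural range.

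Companion lists differed in how many of their genes moved in P6. In the TCA cycle, which supplies NADH and succinate, 7 of 13 genes rose and 1 fell in P6 against P4. Of all genes, 16% rose and 17.3% fell. In P6 against P5, 5 of the 13 rose and 1 fell, where 8.38% of all genes rose and 8.98% fell. Citrate synthase (Cs) rose by 0.60, Idh3a by 0.69 and Mdh2 by 0.53 on the log2 scale against P4, whereas fumarase (Fh1) fell by 0.52. Of the carriers of ATP and phosphate, Slc25a5 rose by 0.37 and Slc25a3 by 0.30 against P4. Slc25a4 did not pass (0.05, adjusted p = 0.776 in edgeR). With the uncoupling family member Ucp2, 3 of 4 tested rose. Of 76 mitochondrial ribosomal protein genes tested, 10 rose against P4, near the 16% of all genes, with a median of 0.27. Cytosolic ribosomal protein genes moved more, with 56 of 75 higher and a median of 0.85. Among the electron carrier and assembly genes outside the rule, 1 of 17 rose, Cyc1, by 0.46, and the median was -0.0021. Of 12 regulators of mitochondrial biogenesis tested, Myc (2.26) and Ppargc1b (0.99) rose, and Nrf1 itself had a value of 0.51 (adjusted p = 0.0586 in edgeR). Between tissues, Myc (log2 fold change -1.42), Gabpb1 (-0.79) and Pprc1 (-0.76) were lower in dura, while Tfam, the packaging factor of mitochondrial DNA, was higher (0.50).

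In the diaphragm the summed subunits were 6512 and 6029 CPM in libraries 1 and 7, 7177 and 6980 in 2 and 8, and 7847, 7519 and 7591 in 3, 6 and 9. Complex V sums were 2335 and 2104, 2530 and 2442, and 2812, 2776 and 2843 CPM in the same order. Libraries 3, 6 and 9 were the highest and 1 and 7 the lowest by both sums. Cycling-cell markers in the same order summed to 52.2 and 53.7, 83.1 and 52.7, and 168.3, 127.5 and 122.5 CPM. Monocyte markers summed to 104.2 and 98.1, 253.2 and 206.9, and 887.3, 1172 and 1184. In libraries 3, 6 and 9 this was mostly Ccr2, at 805.4, 1044 and 1033 CPM. Plac8 did not follow that order, with 122.2 CPM in library 2 and 76.8 in library 3. No test was made between these libraries, since nothing ties the numbers to a condition.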

How the data were processed

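RNA from macrophages sorted in bulk from dura and diaphragm was sequenced as single-end reads of 75 bases with an unstranded kit, per the labels' protocols, so reads of overlapping genes cannot be told apart by strand. The labels describe the digestion of the dura only. Tools listed in the submitters' processing notes are STAR 2.4.0j, featureCounts and DESeq2 1.20.0, with the build GRCm38; their order is not stated. The authors deposited counts per gene as whole numbers, which were taken as raw because the column totals differ widely.

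Diaphragm columns of the same number differed by little more than sampling noise (chi-square per degree of freedom from 1.008 to 1.169, against at least 10.56 in other pairs of a tissue) and were summed. Columns 4 and 5 held 2115 and 1496 counts and were left out. Members and lists were chosen with earlier results of these data known. The whole table was fitted with edgeR 4.0.16 (R 4.3.3; filterByExpr, TMM, quasi-likelihood, two-sided, no covariate), once for the tissues and once for the 9 dural libraries. On simulated counts, 17% of genes changed by a log2 of 0.5 and 53% of those changed by 1 were recovered for the tissues (12854 genes). For P6 against P4 it was 12% and 69% (12956 genes). Only 100 genes were changed at each size, whereas 26.4% and 33.3% of all genes passed in the data. The adjusted threshold was thus stricter in the simulation, and these rates are not those of the members. Named were the 2 most abundant members of each complex, the 8 highest and lowest calls between tissues, up to 6 calls per direction between marks, complex II and the restricted isoforms with their partners; further called members are named to complete a count, chosen after their values were seen. Not every gene the rule takes is reported here. Other scalings, filters, tests (limma 3.58.1, DESeq2 1.42.0) and omitted libraries were tried. Lengths and coordinates came from GENCODE M21 (GRCm38).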

Additional observations from a re-analysis of the deposited data

Results flagged for a closer look

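Single libraries lay far from the rest of their tissue in 3 of 72 groups of values tested (Dixon's criterion at 95%, which chance meets in about 1 group of 20). Sdhb was at 88.9 CPM in diaphragm library 7, below the next value of 110.5, with the highest library at 125.0. Cox8b was at 0.33 CPM in the dural library 1P6, above the next value of 0.12. This library also had the highest dural sum of the 4 listed liver markers, of which only 1 passed the count filter of the dural fit. That sum does not stand for the 4 as a set. Ndufa4l2 was at 8.35 CPM in diaphragm library 1, above the next value of 3.05, and library 1 also had the most fibroblast transcripts. The part of these transcripts was not tested.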

How the results depend on the processing

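Of the alternative values for named members, 2601 stayed on the same side of the threshold, 188 lost a call, 50 gained one and 0 changed the direction of a call. Members lower in dura (13) became 6 with upper-quartile factors, 4 with library totals alone, 1 with dural libraries summed per number, 3 without P4, 5 without P5, 27 without P6, and, as settings added after the data were seen, 8 without diaphragm libraries 2 and 8 and 4 without 3, 6 and 9. Leaving out each library gave 7 to 22. Of all genes, 2007 were lower in dura in the main fit. This became 1688 with upper-quartile factors, 1501 with library totals alone and 813 when summed. Members higher in dura (2) became 6 with library totals alone, 0 when summed, 1 without P4, 1 without P5 and 1 without diaphragm libraries 2 and 8, with 2 in each fit that left out 1 library. The members' median, dura minus diaphragm, was 0.00305 with library totals alone and -0.19 to -0.10 without each library. Members higher in P6 than P4 (22) became 13 with library totals alone, where 1 was lower, 8 with all 16 libraries in one fit, and 13 to 26 without each library. Members higher in P6 than P5 (15) became 28 with a replicate block, 0 with all 16 libraries and 5 to 25 without each library. Without a filter 1 member was higher in P5 than P4. Mitochondrially encoded genes lower in P6 than P4 (4) became 7 without a filter, 7 with the block, 0 with all 16 libraries and 2 to 5 without each library. The cause of these changes was not tested. Deviations of same-numbered dural libraries correlated at -0.017 to 0.156 (9 pairs), against -0.160 to 0.139 for other pairs (18), so the number was not taken as a pairing. However, 7 of 9 libraries correlated best with their own number, and in each mark the summed subunits were highest in number 1 and lowest in number 4, so a shared source is not settled. Depth limits the low members, among them Cox8b and Cox4i2.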
